A study of Homo sapiens with 6 samples.

Results

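The genes described here are 36 heat shock proteins, their co-chaperones and regulators, and the subunits of the cytosolic chaperonin TRiC. They were measured in K562, an established human myeloid leukemia cell line with erythroid features, on Affymetrix U133 Plus 2.0 arrays. The members were found as every probe set of the deposited value table whose platform annotation names a listed gene by its current or a former symbol. This gave 79 of 54613 probe sets that are not array controls, of which 66 name 1 gene and 13 name several. Of the 36 genes, 34 were named by a probe set and 30 were named alone by at least 1 probe set. AHSA1 and HSF2 have no probe set in the annotation used here. HSPA1A and HSPA1B, near-identical copies of the stress-inducible HSP70 gene, were named only by probe sets that they share. HSPA8 was named only together with SNORD14C and SNORD14D, and TCP1 only together with SNORA29, small nucleolar RNAs encoded in their introns. HSPB11 is now called IFT25, a subunit of the intraflagellar transport machinery of cilia.

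The CTCF overexpression group, KCTCF-D11, held 4 arrays of K562 cells stably carrying a pCDNA vector that expresses CTCF, a zinc finger protein found at insulators and at the anchors of chromatin loops. The empty vector group, KpCDNA, held 2 arrays of K562 cells stably carrying the same vector without an insert. No further treatment was given to either group, and no heat shock was part of the design. The CTCF cells are 1 named transfectant, so what CTCF does and what is peculiar to that line cannot be told apart. The labels do not say whether the arrays of a group came from separate cultures, so a p-value covers only how far these arrays vary, and that variation may be technical.

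Heat shock proteins bind unfolded or partly folded proteins and let them fold, move or be degraded. J-domain proteins deliver substrates to HSP70 and stimulate its ATPase, HSP110 proteins release the nucleotide, and HSP90 receives some of the substrates through adaptor proteins such as STIP1. TRiC, a stacked pair of rings with 8 different subunits, encloses actin, tubulin and other proteins while they fold. Many of the cytosolic genes are induced by HSF1, which binds arrays of alternating GAA and TTC units called heat shock elements.

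Clustering on the spike-in controls split the arrays into 2 sets, each with arrays of both groups. CTCF array 4 and empty vector array 1 formed the smaller set, and CTCF arrays 1, 2 and 3 with empty vector array 2 formed the larger set. Pearson correlations over all probe sets were 0.966 to 0.991 within a set and 0.877 to 0.907 between sets, as a description across probe sets, which are not independent. Of 5 genes chosen as markers of non-blood cells, COL3A1, a collagen, and KRT5, a keratin, measured 6114 and 6157 on CTCF array 4. On empty vector array 1 this pair measured 6627 and 6500, against at most 302 on every array of the larger set. PECAM1 had 514 on CTCF array 4 and 524 on empty vector array 1, against 198 to 261 on the larger set. KRT14 and ALB were at most 10.25 and 31.4 on any array. Both groups have 1 array with these values, so this split runs across the comparison. Of 9 K562 markers 7 were measured, with values between 243 and 11367. Among them GATA1 had 1012 to 1228 on the CTCF arrays and 1311 and 1314 on the empty vector arrays. EPOR followed the array sets, with 1346 on CTCF array 4 and 1748 on empty vector array 1, against 243 to 289 on the larger set. HBZ, an embryonic globin and 1 of the 7, rose by 1.58 (adjusted p = 0.0166 in limma). Of 6 markers of other blood cells 4 were measured, and their summed intensity was 670 to 758 on the CTCF arrays, against 1437 and 1405 on the empty vector arrays. CD3D, a subunit of the T cell receptor complex, made up most of that sum and fell by 1.04 (adjusted p = 0.025 in limma), while CD14 of monocytes was close to 1 on every array. The part of these markers in the results on chaperone genes was not tested. All differences that follow are from a fit with the array set as a block (limma on log2(intensity + 16), 2-sided, Benjamini-Hochberg adjusted over all 54613 probe sets). A change is called where the adjusted p is under 0.05. Each set has 1 empty vector array, so no spread between empty vector arrays of the same set enters this fit. Its error comes from CTCF arrays 1, 2 and 3 and from how far the change differs between the sets. Limma also draws on the variance of all probe sets. CTCF had 1311, 1614, 1332 and 1332 on CTCF arrays 1 to 4, against 457 and 634 on empty vector arrays 1 and 2, and rose by 1.29 ± 0.16 (SE) on the log2 scale (adjusted p = 0.0288 in limma). That call was lost without the block (adjusted p = 0.199), without CTCF array 2 (0.123) and without CTCF array 3 (0.106), and kept without CTCF array 1 (0.0476). Leaving out CTCF array 4 or an empty vector array leaves the comparison to 1 array set with 1 empty vector array. That array is then assumed to vary like CTCF arrays 1, 2 and 3, which alone give the spread, so a call lost in these fits says nothing about stability. The change of CTCF in them was 1.14 to 1.51, with adjusted p-values of 0.244 to 0.398.

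In the CTCF arrays most of the chaperone genes were higher than in the empty vector arrays, by amounts that mostly did not pass the threshold. Of the 79 probe sets 3 rose and 0 fell, where 0.538% of all probe sets rose (294 of 1017 called) and 1.32% fell. After quantile normalization 512 of 1207 called probe sets rose, and 4 of the 79. The 3 are a pair of probe sets for HSPH1, the cytosolic HSP110, and 1 for HSP90AA1, the inducible HSP90. Before adjustment 41 of the 79 had a p under 0.05 and a positive change and 1 a negative one, where the shares over all probe sets were 7.43% and 10.2%. The log2 change was above 0 for 66 of the 79 probe sets and below 0 for 13. In 35 probe sets every CTCF array was above both empty vector arrays, and in 1, that of BAG3, every CTCF array was below them. Over all probe sets these shares were 6.06% and 7.18%. The members are mostly bright, and none of these shares was counted among probe sets as bright as they are.

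With the brightest probe set standing for each gene, 1 of 30 member genes rose and 0 fell, where 0.622% of 19775 genes rose and 1.95% fell. The median log2 change over the 30 genes was 0.30, against -0.02 over all genes. It was 0.24 within the smaller array set, which has 1 array of each group, and 0.34 within the larger set. The change was positive in 25 of the 30, where 47% of all genes had a positive change. Before adjustment 16 of the 30 had a p under 0.05 and a positive change (8.66% of all genes) and 0 a negative one (12.7%). In 16 of the 30 every CTCF array was above both empty vector arrays (8% of all genes), and in 1 every CTCF array was below them (9.63%). The 5 genes with a negative change were DNAJB6, HSPA9, BAG3, HSF1 and HSPA1L, the last of which turned to 0.01 after quantile normalization. The members are bright genes, since 21 of 30 had a mean log2 value of at least 10, and bright genes have other shares. Of the 21, 19 had a positive change, as did 46.2% of all 2511 genes this bright. In 15 of the 21 every CTCF array was above both empty vector arrays, as in 22.3% of genes this bright, while 21.8% were below. The share of genes this bright with an unadjusted p under 0.05 was not counted. These counts and medians describe the list, which was chosen with results of these data known. In bulk samples such as these, more cells that express a gene and more RNA per cell cannot be told apart. Without the block 0 of the 79 probe sets passed and 6 of 54613 did in all (0.011%), by limma with the same threshold, and 11 of the 30 genes had an unadjusted p under 0.05 and a positive change (4.23% of all genes), while the median over member genes was 0.35.

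**Figure D1:**
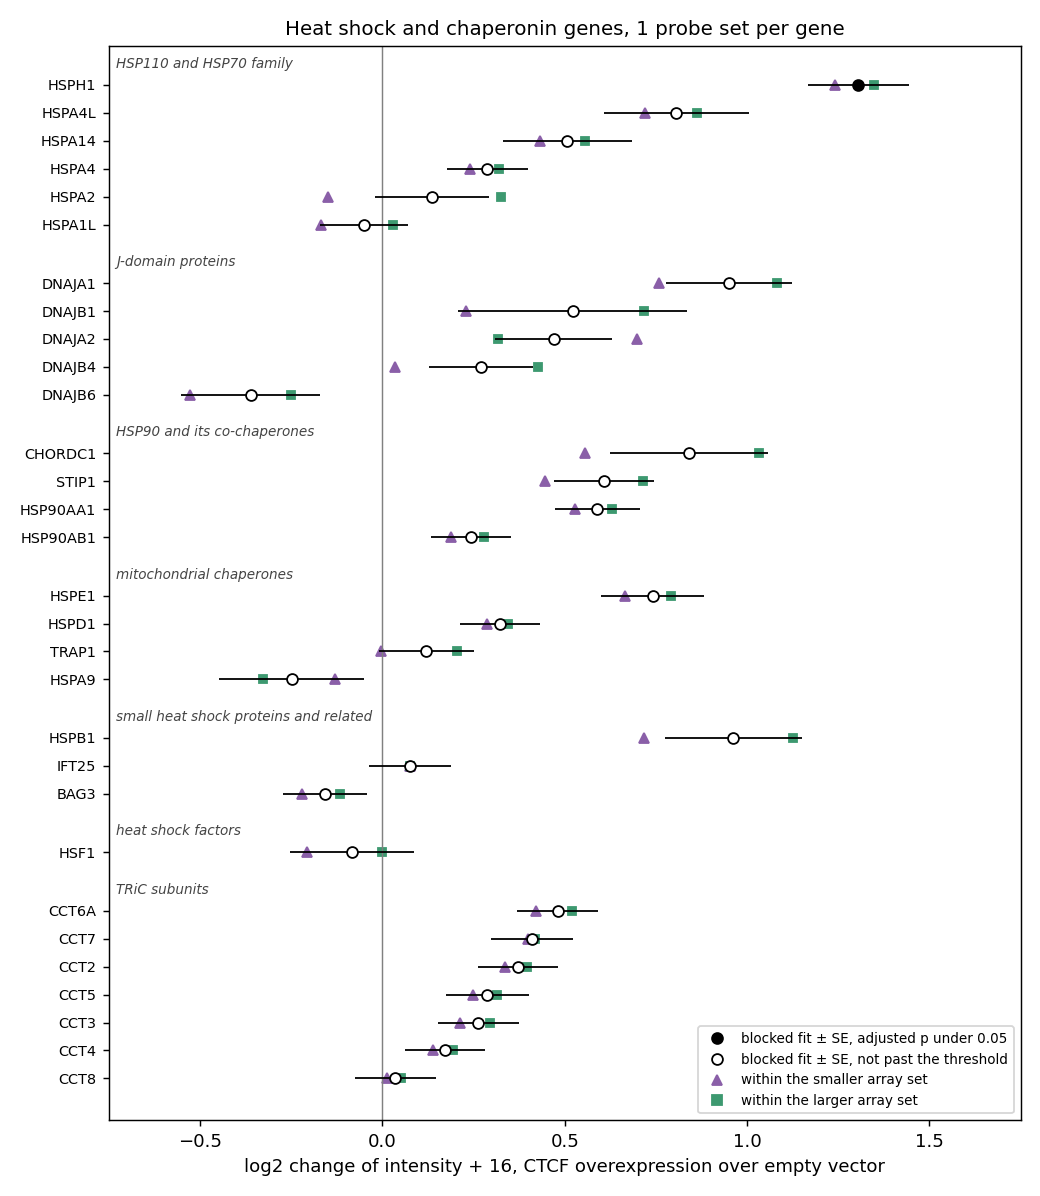
Log2 change of intensity + 16, CTCF overexpression over empty vector, for the 30 member genes that a probe set names alone, grouped by role. Circles give the fit with the array set as a block with its SE, filled where the adjusted p was under 0.05, and triangles and squares give the difference within the smaller and the larger array set. HSPH1 is the filled point at 1.30, and 25 of the 30 circles lie above 0.

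By role the medians were 0.60 over 4 genes of HSP90 and its co-chaperones, 0.47 over 5 J-domain proteins, 0.40 over 6 HSP110 and HSP70 genes and 0.29 over 7 TRiC subunits. They were 0.22 over 4 mitochondrial chaperones and 0.07 over 3 genes of the small heat shock proteins and related. HSF1, the only heat shock factor among the members that was measured, had a change of -0.08. No test was made between roles. In the plot of all genes the members lie mostly at the bright end, where the spread of changes over genes is narrower than at middle intensities.

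**Figure D2:**
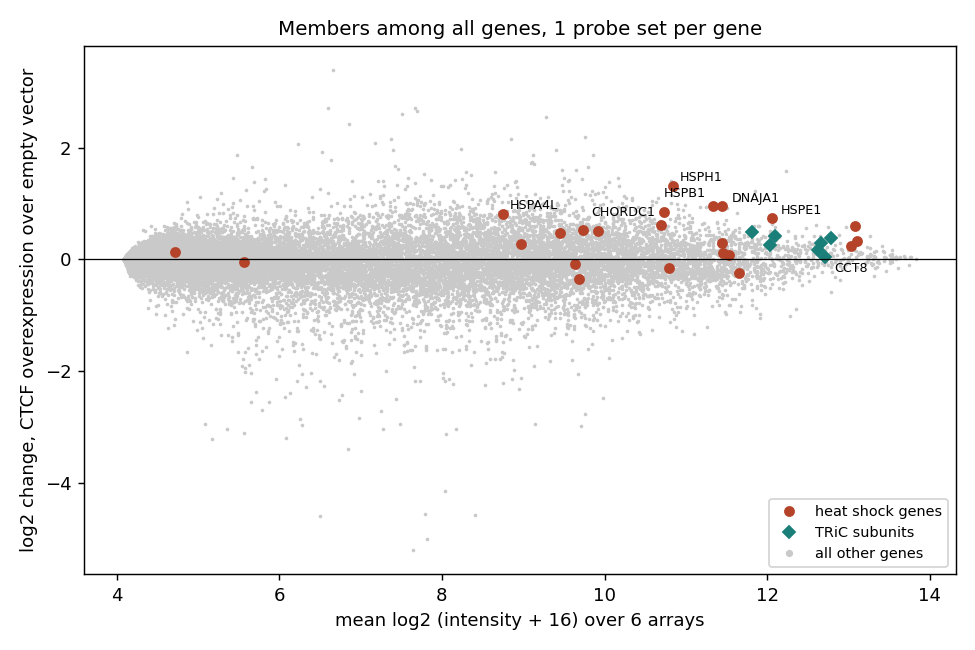
Mean log2(intensity + 16) over the 6 arrays (horizontal) and log2 change, CTCF overexpression over empty vector (vertical), for 19775 genes with 1 probe set each. Grey points are all other genes, red circles the 23 heat shock members and green diamonds the 7 TRiC subunits, all 7 of which lie above 0.

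The promoters of the members were read from a RefSeq table (GRCh38.p14), which holds 33 of the 36 genes with 48 transcription starts. The 250 bases before each start were searched on both strands for a strict heat shock element of 3 units, spelled GAA, TTC, GAA or TTC, GAA, TTC with any 2 bases between units. It was found at 6 of 48 member starts (12.5%) and at 155 of 35116 starts in the table (0.441%), as a description of these letters. The 6 genes were CHORDC1, DNAJB6, HSP90AA1, HSP90AB1, HSPA8 and HSPD1, whose changes on the arrays ranged over both signs. For each gene 100 bases that hold an element are shown because these elements are the regulatory sequence by which this gene family is known, 5′ to 3′ on the gene's strand, with the elements in capitals and overlapping elements as 1 run. HSPA8 holds a further element, at bases -230 to -218 from its start, outside the bases shown.
CHORDC1, chr11:90223050-90223149, minus strand: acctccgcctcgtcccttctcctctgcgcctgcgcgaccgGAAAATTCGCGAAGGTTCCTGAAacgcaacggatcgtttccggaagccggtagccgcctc
DNAJB6, chr7:157336868-157336967, plus strand: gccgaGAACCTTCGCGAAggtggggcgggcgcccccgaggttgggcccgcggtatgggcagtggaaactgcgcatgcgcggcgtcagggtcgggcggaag
HSP90AA1, chr14:102087045-102087144, minus strand: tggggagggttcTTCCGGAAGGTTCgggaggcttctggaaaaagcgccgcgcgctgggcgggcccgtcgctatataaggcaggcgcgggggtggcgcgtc
HSP90AB1, chr6:44247773-44247872, plus strand: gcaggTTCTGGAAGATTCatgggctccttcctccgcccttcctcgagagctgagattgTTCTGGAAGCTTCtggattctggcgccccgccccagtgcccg
HSPA8, chr11:123062137-123062236, minus strand: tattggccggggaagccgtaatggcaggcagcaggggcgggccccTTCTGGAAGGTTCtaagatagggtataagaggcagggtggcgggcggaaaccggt
HSPD1, chr2:197499991-197500090, minus strand: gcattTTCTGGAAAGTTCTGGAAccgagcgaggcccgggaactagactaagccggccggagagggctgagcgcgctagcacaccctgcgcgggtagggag

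HSPA1A and HSPA1B held no run of these exact letters in the window, which says nothing about the factor. Over the bases before their starts the pair were identical at 235 of 249 positions when aligned with a shift of 1. Their last 100 bases before the start are shown for that likeness, with a CCAAT box, read on the opposite strand as ATTGG, and a TATA box (TATAAA) in capitals. CCAAT was found at 35.4% of member starts and 32.0% of all starts, and TATAAA at 12.5% and 10.7%.
HSPA1A, chr6:31815443-31815542, plus strand: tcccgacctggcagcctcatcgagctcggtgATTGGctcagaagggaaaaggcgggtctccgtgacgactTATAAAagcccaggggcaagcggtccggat
HSPA1B, chr6:31827638-31827737, plus strand: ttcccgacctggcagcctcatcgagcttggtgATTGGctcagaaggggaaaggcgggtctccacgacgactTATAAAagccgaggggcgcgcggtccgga

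Part of the motif that CTCF binds, spelled CCA, AG, GGC with any 2 bases between them, was found at 1 of 48 member starts (2.08%), that of DNAJB1, and at 2.02% of all starts. The arrays give no measure of binding at any of these windows.

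HSPH1, which exchanges the nucleotide of HSP70 and takes part in dissolving protein aggregates, had the largest change of the 30 genes, at the 99.7th percentile of all genes. Its brightest probe set (206976_s_at) measured 2273, 2743, 2775 and 2229 on CTCF arrays 1 to 4, against 934 and 1007 on empty vector arrays 1 and 2. The groups lay far apart, and CTCF arrays 2 and 3 were the highest. The means were 2505 ± 294 and 970 ± 52.0 (SD, n = 4 and 2), and HSPH1 rose 2.47-fold (log2 1.30 ± 0.14 SE, adjusted p = 0.0247 in limma). Within the smaller set the difference was 1.24 and within the larger set 1.35. The second probe set (208744_x_at) measured 740, 1025, 1115 and 322 on CTCF arrays 1 to 4, against 55.1 and 301 on empty vector arrays 1 and 2. CTCF array 4 lay just above empty vector array 2 here, both groups were lower in the smaller set, and the change was 1.86 ± 0.23 with an adjusted p of 0.0303 in limma. The suffix of that probe set marks probes that may bind other transcripts too. The dimmest (235573_at) measured 109, 215, 187 and 35.8 on the CTCF arrays, against 9.12 and 44.6 on the empty vector arrays, and did not pass (1.36 ± 0.29, adjusted p = 0.0813 in limma). The HSPH1 call was lost without the block (1.35, adjusted p = 0.167 in limma). It was also lost without CTCF array 2 (1.28, adjusted p = 0.122) or 3 (1.27, adjusted p = 0.104), and was kept without CTCF array 1 (1.35, adjusted p = 0.0425). Without CTCF array 2 or 3 nearly all calls of the series were lost. In the fits with 1 empty vector array the change was 1.24 and 1.35, which are the differences within the sets, with adjusted p-values of 0.398 and 0.232. The second probe set had 2.30 without the block (adjusted p = 0.595). It too was called without CTCF array 1 (adjusted p = 0.0419) and not without CTCF array 2 (0.141) or 3 (0.118).

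HSPA4L, a close relative of HSPH1 known for its expression in the testis, measured 492, 695, 752 and 307 on the CTCF arrays, against 180 and 342 on the empty vector arrays. CTCF array 4 lay below empty vector array 2, so the groups overlapped across the sets, although within each set CTCF was higher (0.72 and 0.86). Its change of 0.81 ± 0.20 did not pass (adjusted p = 0.111 in limma). HSPA14, an HSP70 relative that sits at the ribosome, measured 911, 1248, 1267 and 961 on the CTCF arrays, against 708 and 763 on the empty vector arrays. The groups did not overlap, and the change was 0.51 ± 0.18 (adjusted p = 0.216 in limma). Its other probe sets had changes of 0.77 and 0.95, with adjusted p-values of 0.097 and 0.0741. HSPA4, the constitutive HSP110 relative, had 4 probe sets with changes between 0.12 and 0.34, and none passed. HSPA2 and HSPA1L, HSP70 genes known for their expression in the testis, were dim, with at most 17.9 and 41.6 on any array in the probe sets that stand for them. Their changes were 0.14 and -0.05, and the sign of the second turned under quantile normalization (0.01) and without the block (0.11).

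The inducible HSP70 genes HSPA1A and HSPA1B were higher on CTCF arrays 2 and 3 than on all other arrays. Probe set 200799_at, which names both, measured 4519, 7689, 7250 and 4326 on CTCF arrays 1 to 4, against 4027 and 3788 on empty vector arrays 1 and 2. Probe set 202581_at, which also names both, measured 331, 1200, 930 and 71.1 on the CTCF arrays, against 39.1 and 321 on the empty vector arrays. In the first the groups did not overlap, with every CTCF array above both empty vector arrays. In the second they overlapped, with CTCF array 1 close to empty vector array 2 of the same set and CTCF array 4 above empty vector array 1 but below empty vector array 2. The changes were 0.48 ± 0.28 and 0.94 ± 0.52, with adjusted p-values of 0.445 and 0.428 in limma, so neither passed. The probe set that names HSPA1L as well (200800_s_at) gave 1923, 4273, 4062 and 1230 on the CTCF arrays, against 1100 and 1639 on the empty vector arrays. Again CTCF arrays 2 and 3 stood out, and the change was 0.64 ± 0.39. Over all probe sets, CTCF arrays 2 and 3 also had the highest correlation of any arrays (0.991), and CTCF array 1 correlated with empty vector array 2 (0.980) almost as closely as with CTCF arrays 2 and 3 (0.984 and 0.981). Replicates carry no further label that tells them apart. The median of the spike-in controls was 385 and 366 on CTCF arrays 2 and 3. It was 289 on CTCF array 1 and 281 on empty vector array 2 of the same set. No empty vector array had a value as high as CTCF arrays 2 and 3, and the block does not separate these arrays within the set. The part of this difference in the results was not tested.

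HSPA8, the constitutive HSP70 whose upstream window holds a heat shock element, was read by 4 bright probe sets that also name SNORD14C and SNORD14D. Probe set 210338_s_at measured 9946, 12326, 12305 and 8597 on the CTCF arrays, against 5748 and 6505 on the empty vector arrays. All 4 probe sets had every CTCF array above both empty vector arrays. Their changes ran between 0.49 and 0.72 with adjusted p-values of 0.0792 to 0.126 in limma, so none passed.

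Among the J-domain proteins, DNAJA1, a co-chaperone that partners HSPA8 in the cytosol, was the most changed. It measured 3031, 3939, 4015 and 3081 on the CTCF arrays, against 1816 and 1708 on the empty vector arrays (200881_s_at). The groups were well apart, and CTCF arrays 2 and 3 were the highest. The change was 0.95 ± 0.17 with an adjusted p of 0.0608 in limma, and that of the second probe set (200880_at) was 1.13 ± 0.25 with an adjusted p of 0.0853. DNAJB1, the stress-inducible J-domain protein that works with HSP70 and HSP110 on aggregates, measured 761, 1485, 1426 and 598 on the CTCF arrays, against 507 and 708 on the empty vector arrays. CTCF array 4 lay between the empty vector arrays, and the change of 0.52 ± 0.31 did not pass (adjusted p = 0.469 in limma). The remaining J-domain members went both ways. DNAJA2 had 0.47 in one probe set and -0.13 in the other, DNAJB4 had 0.27 and 0.53, and DNAJB6, known to suppress aggregation of polyglutamine proteins, had -0.36 ± 0.19 (adjusted p = 0.407 in limma). The probe sets that name DNAJB6 beside TMEM135 had 0.11 and 0.05.

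**Figure D3:**
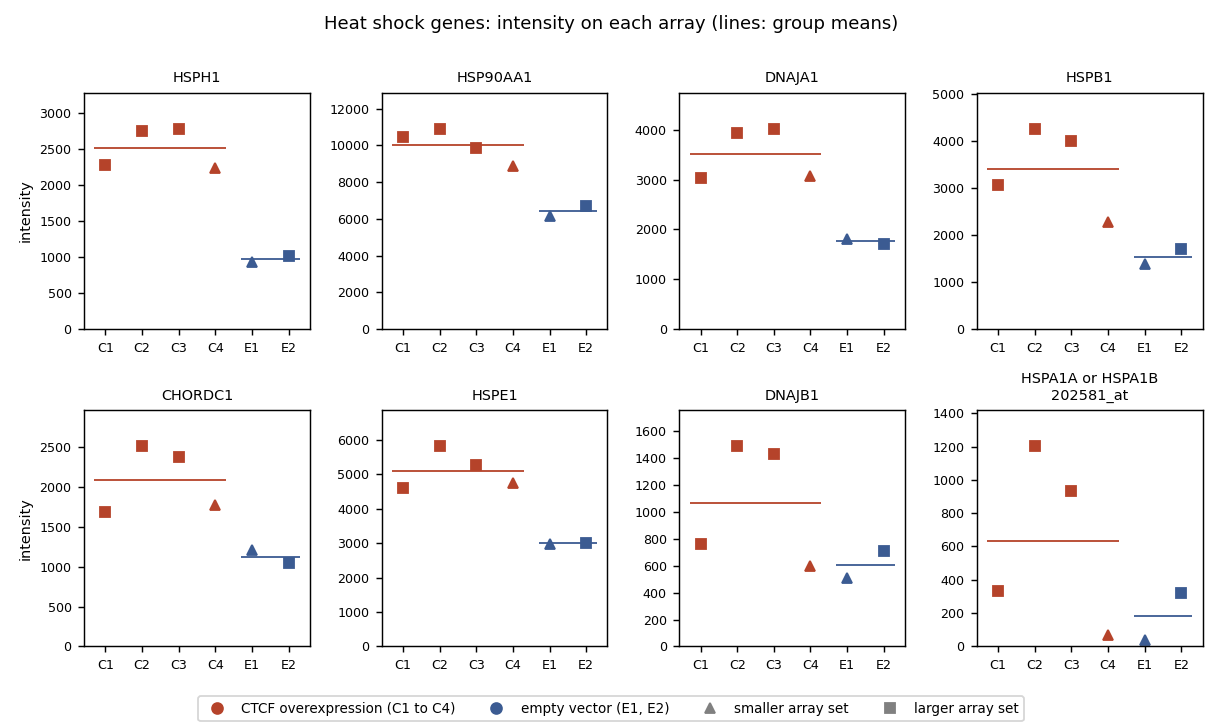
Intensity on each array for 7 heat shock members and for 202581_at, the dimmer probe set that names HSPA1A and HSPA1B, with CTCF arrays (C1 to C4, red) left of empty vector arrays (E1 and E2, blue); lines are group means, triangles the smaller array set and squares the larger. HSPH1, HSP90AA1, DNAJA1, HSPB1, CHORDC1 and HSPE1 had groups that did not overlap, while DNAJB1 and 202581_at overlapped, with C2 and C3 at the top.

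HSP90AA1, the stress-inducible cytosolic HSP90, was read by 4 bright probe sets, each with every CTCF array above both empty vector arrays. The probe set that rose (211968_s_at) measured 5428, 6022, 5446 and 5158 on the CTCF arrays, against 2978 and 3113 on the empty vector arrays. The spread within each group was small beside the gap between them, and the change was 1.77-fold (log2 0.83 ± 0.12, adjusted p = 0.0401 in limma). The brightest (214328_s_at) measured 10456, 10886, 9847 and 8855 on the CTCF arrays, against 6139 and 6703 on the empty vector arrays. Its change of 0.59 ± 0.12 had an adjusted p of 0.0717, and the other 2 changes were 0.66 and 0.67 with adjusted p-values of 0.0611 and 0.0672 in limma. The call of 211968_s_at was lost without the block (adjusted p = 0.256) and without CTCF array 1, 2 or 3 (adjusted p-values of 0.0581, 0.141 and 0.131), with changes of 0.80 to 0.84. In the fits with 1 empty vector array the change was 0.79 and 0.85, with adjusted p-values of 0.432 and 0.25.

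HSP90AB1, the constitutive HSP90, had smaller changes of 0.24 ± 0.11, 0.31 ± 0.12 and 0.36 ± 0.12 in 3 probe sets, and none passed. Whether HSP90AA1 and HSP90AB1 differed in their change was not tested. STIP1, the adaptor that links HSP70 to HSP90, measured 1965, 2270, 2270 and 1441 on the CTCF arrays, against 1053 and 1312 on the empty vector arrays. The groups did not overlap, and each set had a gap between them, with a change of 0.61 ± 0.14 (adjusted p = 0.0909 in limma) and 0.91 ± 0.15 in the second probe set (adjusted p = 0.0534). CHORDC1, a co-chaperone of HSP90 also called morgana, measured 1693, 2513, 2376 and 1782 on the CTCF arrays, against 1208 and 1050 on the empty vector arrays. CTCF arrays 2 and 3 were again the highest, and the change was 0.84 ± 0.22 (adjusted p = 0.12 in limma).

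The mitochondrial chaperonin has a barrel, HSPD1, and a lid, HSPE1, whose genes lie head to head. HSPE1 measured 4602, 5806, 5278 and 4733 on the CTCF arrays, against 2979 and 2998 on the empty vector arrays. The empty vector arrays were almost equal and all CTCF arrays far above them, with a change of 0.74 ± 0.14 (adjusted p = 0.0669 in limma). HSPD1 measured 9933, 10285, 10286 and 8300 on the CTCF arrays, against 6800 and 8000 on the empty vector arrays. CTCF array 4 was closest to the empty vector arrays, and the change was 0.32 ± 0.11 (adjusted p = 0.207 in limma). The 5 HSPD1 probe sets had changes between 0.09 and 0.91, all positive, and none passed. HSPA9, the HSP70 of the mitochondrial matrix, measured 4205, 3026, 2791 and 2613 on the CTCF arrays, against 2862 and 4129 on the empty vector arrays. Its high arrays were CTCF array 1 and empty vector array 2, both of the larger set, and the change was -0.25 ± 0.20 (adjusted p = 0.597 in limma). All 4 HSPA9 probe sets had a negative change. TRAP1, the mitochondrial HSP90, had 0.12 ± 0.13.

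HSPB1, the small heat shock protein HSP27 that holds unfolded proteins without ATP, measured 3072, 4254, 3996 and 2268 on the CTCF arrays, against 1373 and 1706 on the empty vector arrays. The groups did not overlap, and CTCF array 4 of the smaller set was the lowest of its group. The change was 0.96 ± 0.19 with an adjusted p of 0.0695 in limma. BAG3, which links HSP70 to small heat shock proteins and is a known HSF1 target, measured 1734, 1646, 1587 and 1752 on the CTCF arrays, against 2043 and 1795 on the empty vector arrays. It was the only member probe set with all CTCF arrays below both empty vector arrays, by a small amount (-0.16 ± 0.12, adjusted p = 0.557 in limma). IFT25 had 0.07 in its brightest probe set, 0.29 in a second and -1.24 ± 0.37 in the dimmest (214163_at, adjusted p = 0.166 in limma). HSF1, the factor itself, measured 681, 940, 878 and 654 on the CTCF arrays, against 757 and 826 on the empty vector arrays. The groups overlapped, and the change was -0.08 ± 0.17 (adjusted p = 0.859 in limma), which concerns its transcript and not the activity of the protein.

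The TRiC subunits had small changes and were bright on every array in the probe sets that stand for them. All 7 subunits named alone had a positive change, between 0.04 and 0.48, and none passed the threshold. In 6 of the 7 every CTCF array was above both empty vector arrays, where 22.3% of genes with a mean log2 value of at least 10 had that. The median was 0.25 within the smaller set and 0.31 within the larger set. TCP1, the subunit that gave the complex its name, was read only by probe sets that also name SNORA29. Its brightest (208778_s_at) measured 5996, 5934, 6087 and 5400 on the CTCF arrays, against 3874 and 4079 on the empty vector arrays. The gap was wide beside the spread, and the change was 0.52 ± 0.11 (adjusted p = 0.0805 in limma). The other TCP1 probe sets had 1.51 ± 0.27 (adjusted p = 0.0596) and 0.83 ± 0.20 (adjusted p = 0.107).

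CCT6A measured 4033, 3861, 3948 and 4146 on the CTCF arrays, against 3092 and 2747 on the empty vector arrays, with a change of 0.48 ± 0.11 (adjusted p = 0.0975 in limma). CCT7 measured 5262, 5340, 4943 and 4122 on the CTCF arrays, against 3124 and 3872 on the empty vector arrays, with a change of 0.41 ± 0.11. Neither overlapped, although CTCF array 4 and empty vector array 2, from different sets, came close for CCT7. CCT2 measured 7604, 7842, 7770 and 7440 on the CTCF arrays, against 5892 and 5870 on the empty vector arrays, with a change of 0.37 ± 0.11. CCT5 measured 6764, 7323, 7237 and 6518 on the CTCF arrays, against 5487 and 5714 on the empty vector arrays, with a change of 0.29 ± 0.11. Both subunits, parts of the ring that folds actin and tubulin, had clear gaps between the groups. CCT3 measured 4633, 4699, 4491 and 4125 on the CTCF arrays, against 3561 and 3749 on the empty vector arrays, with a change of 0.26 ± 0.11. CCT4 measured 6666, 6842, 6926 and 6122 on the CTCF arrays, against 5558 and 5953 on the empty vector arrays, with a change of 0.17 ± 0.11. The groups were apart in both, by little for CCT4. CCT8 measured 6931, 6912, 6567 and 6564 on the CTCF arrays, against 6508 and 6564 on the empty vector arrays. The groups touched, and the change was 0.04 ± 0.11 with a 95% interval of -0.24 to 0.31 (adjusted p = 0.913 in limma). Adjusted p-values of the other 5 were 0.138 for CCT7, 0.157 for CCT2, 0.272 for CCT5, 0.304 for CCT3 and 0.499 for CCT4. Differences between subunits were not tested.

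**Figure D4:**
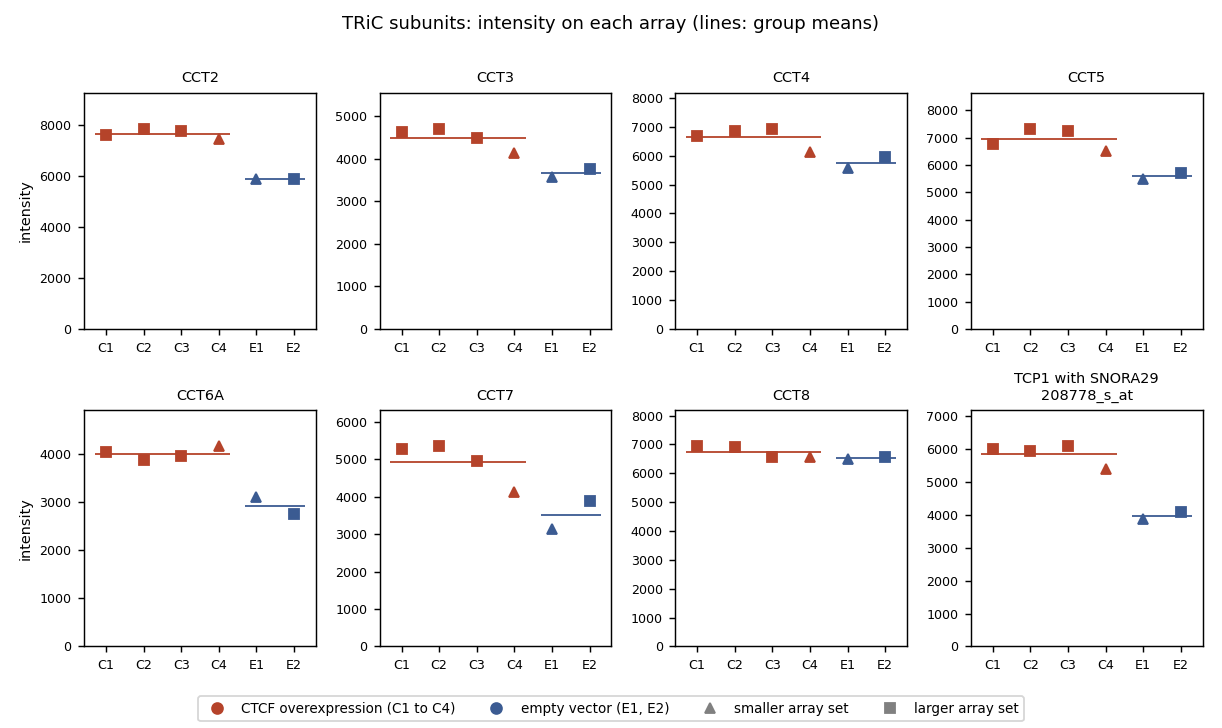
Intensity on each array for 7 TRiC subunits and for a TCP1 probe set that also names SNORA29, with CTCF arrays (C1 to C4, red) left of empty vector arrays (E1 and E2, blue); lines are group means, triangles the smaller array set and squares the larger. All panels but CCT8 have every CTCF array above both empty vector arrays.

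Members with several probe sets were compared by the sign of the change only. Sizes differed, as for HSPD1 with 0.09 to 0.91, and some of these probe sets were dim. The share of all genes whose probe sets had the same sign was not counted. Of 23 members with more than 1 probe set of their own, 20 had changes of the same sign in all of them, and DNAJA2, IFT25 and TRAP1 had both signs. The 13 probe sets that name a member together with another gene all had a positive change. Of the 768 probe sets selected in the authors' deposited table, 311 have a positive fold change, or 0.569% of all probe sets, and 457 a negative one, or 0.837%. That table holds 11 of the 79 member probe sets, all with a positive fold change. Its rule of a difference of means over 90 favours bright probe sets, and the members are mostly bright. The share among probe sets as bright as the members was not counted. By the authors' deposited table the fold changes were 2.55, 4.49 and 4.99 for the 3 HSPH1 probe sets, 2.01 and 2.38 for DNAJA1 and 3.34 and 1.87 for TCP1 with SNORA29. The bounds of both 4.49 and 4.99 were 1.84 and 1e+08, so the upper one sets no limit. In the blocked fit those HSPH1 probe sets, 208744_x_at and 235573_at, had 3.63-fold and 2.57-fold changes. The authors' table also lists HSPB1 at 2.18, HSPA14 at 2.14, HSP90AA1 at 1.8 and HSPE1 at 1.72. These come from the same 6 arrays, and the header of that table states no term for the array sets.

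Of 96 further genes in 7 lists of the same pathways, 91 were measured. Among the 91, 0 rose and 1 fell, where 0.622% of all 19775 genes rose and 1.95% fell. The median change over the 91 was 0.02. The highest list median, 0.26 over 17 genes, was that of the HSP90 co-chaperones beyond the members, with none past the threshold. Of the 17, 14 had a positive change, as did 47% of all genes. The brightest gene of that list, PTGES3, the co-chaperone p23, had 0.30 ± 0.11 (adjusted p = 0.26 in limma). The HSP70 co-chaperones had a median of 0.05 over 22 genes, with 0.28 ± 0.11 for STUB1, the ubiquitin ligase CHIP. The mitochondrial chaperones and proteases had 0.06 over 12, and their brightest, the protease YME1L1, had 0.25 ± 0.11. For the list of prefoldin, which hands substrates to TRiC, and of TRiC cofactors and related proteins, the median was -0.13 over 10. VBP1, a prefoldin subunit, had 0.01 ± 0.12. The small heat shock proteins beyond the members had -0.03 over 8, and CRYAB, alpha-B crystallin, had 0.96 ± 0.18 (adjusted p = 0.0677 in limma). Other HSP70 genes and heat shock regulators had -0.10 over 12, and UBB, a ubiquitin gene, had 0.10 ± 0.11. None of the genes in those 6 lists passed.

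The list of actin and tubulin substrates of TRiC had a median of 0.01 over 10 genes and held the 1 gene that fell. TUBA1A, an alpha-tubulin, measured 197, 376, 336 and 86.3 on the CTCF arrays, against 768 and 1048 on the empty vector arrays. Every CTCF array was far below both empty vector arrays, and TUBA1A fell by 2.25 ± 0.35 on the log2 scale (adjusted p = 0.0476 in limma). The other 9 genes of that list did not pass. The call of TUBA1A was lost without the block (-1.96, adjusted p = 0.53 in limma) and without CTCF array 1, 2 or 3 (adjusted p-values of 0.0658, 0.137 and 0.138). In the fits with 1 empty vector array the change was -2.94 and -1.79, with adjusted p-values of 0.398 and 0.282.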

How the data were processed

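Biotin-labelled RNA of 6 samples was hybridised to 1 array each, and the sample titles gave the groups. The authors deposited 1 linear intensity for each probe set on each array. How these were background-corrected, summarised and normalized, and with which software, is not stated in the sources used here. Array medians were 28.9 to 34.2, and no further normalization was applied. The number of arrays limits the precision. The authors also deposited a table of probe sets they selected, with mean intensities and a signed fold change, here a score of the authors. Per the file headers it keeps a lower bound of the fold over 1.5 and a difference of means over 90, with averages weighted by standard error. Its baseline is the empty vector group, whose array means it matches to a median of 0.00318 on the log2 scale.

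Values were analysed as log2(intensity + 16) with limma 3.58.1 (lmFit and eBayes) in R 4.3.3. All 54613 probe sets outside the 62 array controls were fitted together, with the group and, as a block, the array set from clustering the arrays on spike-in controls. The threshold was a Benjamini-Hochberg adjusted p of 0.05. The fit was tested on simulated arrays. Gene names are those of GEO's platform annotation, in which 41091 probe sets have 1 gene, 1801 several and 11721 are unlisted, and symbols were updated through a RefSeq gene table (GRCh38.p14). CHP1, a former symbol of CHORDC1, is now another gene and was not taken. The probe set with the highest mean log2 value stands for a gene. Bright genes have a mean log2 value of at least 10.

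Members and lists were chosen with earlier results of these data known. All members may be named, those called, the 10 with the largest change and the TRiC subunits with full values, and from each pathway list up to 3 called genes or the brightest. Alternatives were no block, the replicate number as block, quantile normalization, median centring, dim probe sets left out, pseudocounts of 1 and 64, a variance trend with robust prior, each array left out, the mean of a gene's probe sets and probe sets naming several genes, the last for HSPA8 and TCP1 chosen after seeing the data. No set test was made.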

Additional observations from a re-analysis of the deposited data

Results flagged for a closer look

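In 3 of the 30 member genes tested, 1 of the 4 CTCF arrays lay far from the other 3, with a gap that, as a share of the group's range on the log2 scale, was above Dixon's critical value for 4 values, which chance gives in about 1 in 20 groups. Each time this was CTCF array 4, the only CTCF array of the smaller array set. HSPD1 had 8300 there, against 9933 to 10286 on the other 3. HSP90AB1 had 7573, against 9318 to 9585, and HSPA1L, dim on all arrays, had 17.4, against 37.3 to 41.6. On empty vector array 1, the other array of that set, these genes had 6800, 6643 and 21.5, against 8000, 7818 and 37.8 on empty vector array 2 of the larger set.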

How the results depend on the processing

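The median change of the member genes stayed between 0.24 and 0.42 under all alternatives, and the called member probe sets were all higher in each of them. The number of calls was not stable. Without the block 6 probe sets, 0 member probe sets and 0 member genes passed, and CTCF had 1.34 (adjusted p = 0.199 in limma). With the replicate number as block 0, 0 and 0 passed and CTCF had 1.41 (adjusted p = 0.732). Deviations from the group means of same-numbered arrays correlated at -0.675 for number 1 and 0.696 for number 2. With 2 empty vector arrays their deviations mirror each other, and the signs follow the array sets. These values therefore cannot show whether the numbers pair the arrays. With a pseudocount of 1, 2, 0 and 0 passed and CTCF had 1.31 (adjusted p = 0.143). Median centring gave 7 member probe sets and 2 member genes, DNAJA1 and HSPH1, where 0.967% of all probe sets rose. Leaving out dim probe sets gave 2642 calls in all, 19 member probe sets and 6 member genes, where 3.63% rose. A pseudocount of 64 gave 2140, 17 and 8, where 1.32% rose. A variance trend with robust prior gave 2567, 30 and 11, where 1.82% rose, among them CCT2, CCT6A and CCT7. The mean of a gene's probe sets gave 7 member genes, all higher, where 4.64% of genes passed in either direction. The share of genes that rose there was not counted.

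With 1 array left out, 0 to 762 probe sets, 0 to 3 member probe sets and 0 to 1 member genes passed, the median was 0.24 to 0.34 and CTCF had 1.14 to 1.51. HSPH1 kept its call without CTCF array 1, where 762 probe sets passed in all. It lost the call without CTCF array 2 or 3, where 0 and 8 probe sets passed in all. Without CTCF array 4 or an empty vector array, 1 empty vector array is compared within 1 set and assumed to vary like CTCF arrays 1, 2 and 3, so the 0 calls there say nothing about stability. Of 726 values of 52 single genes or probe sets under 14 alternatives, 637 kept direction and side of the threshold, 34 lost the call and 41 gained it. The direction turned in 14, none of them called. HSPA1L had 0.11 without the block, 0.31 with the replicate block, 0.0055 after quantile normalization and -0.17 to 0.028 with 1 array left out. With the replicate block HSPA9 had 0.053, IFT25 -0.0054, HSF1 0.017 and DNAJB4 -0.20. The mean of a gene's probe sets is not among the 14 alternatives, and in it IFT25 had -0.29, against 0.07 in its brightest probe set. With 1 array left out TRAP1 had -0.0052 to 0.20, HSPA2 -0.15 to 0.33, VBP1 -0.024 to 0.032 and a probe set of DNAJB6 and TMEM135 -0.036 to 0.20. The causes were not tested.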

Other observations

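Some genes of the pathway lists outside the 36 members had large changes that did not pass the threshold, and those given here were chosen after their values were seen. TTC4, a co-chaperone that binds HSP90 and HSP70, measured 521, 855, 889 and 408 on CTCF arrays 1 to 4, against 167 and 353 on empty vector arrays 1 and 2. Its groups did not overlap, and its change was 1.10 ± 0.25 on the log2 scale (adjusted p = 0.0908 in limma). PPID, the HSP90-binding cyclophilin 40, measured 1801, 2368, 2183 and 1777 on the CTCF arrays, against 1198 and 999 on the empty vector arrays, with a change of 0.86 ± 0.18 (adjusted p = 0.0808 in limma). HSPA6, an HSP70 gene that is induced by strong stress in humans, measured 229, 192, 278 and 570 on the CTCF arrays, against 314 and 120 on the empty vector arrays. CTCF was higher within each array set (0.83 and 0.85) while the groups overlapped across sets, and the change was 0.84 ± 0.17 (adjusted p = 0.0746 in limma). FKBP8, an HSP90-binding immunophilin of the mitochondrial surface, measured 329, 269, 216 and 5.9 on the CTCF arrays, against 38.1 and 533 on the empty vector arrays, with a change of -1.09 ± 0.20 (adjusted p = 0.0599 in limma). It was lower in CTCF within each array set and differed most between the sets.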
